A study of Mus musculus with 23 samples.

Results

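Naive spleen B cells of the mouse that carried guide 1 against Irf8 were compared with the unguided cells of the same arm of the study. The comparison used 6 of the 23 RNA-seq libraries of the series, 3 of cells labelled IRF8 KO and 3 of cells labelled IRF8 WT, chosen by their labels. The KO cells carried guide 1 and were sorted as Thy1.1-positive. The WT cells carried no guide and were sorted as Thy1.1-negative. All cells of both groups were untreated, came from spleen, and were sorted for B220 and against CD11b, F4/80 and Thy1.2. The strain, sex and age of the mice and the way in which the guide was delivered are not given in the sources used here. A second naive arm of 6 libraries, with guide 2 and its own unguided cells, entered the same fit and is used below for comparison. Cells with a control guide were not part of the design. Loss of Irf8, the presence of a guide and the Thy1.1 sort therefore cannot be told apart in any difference below. The labels name the libraries of a group A, B and C and do not say that they came from separate animals, so p-values measure the spread between these libraries.

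IRF8 belongs to the interferon regulatory factors, proteins that control transcription, and is made in B cells and in myeloid and dendritic cells. It binds DNA poorly alone and acts with partners, with ETS factors such as PU.1 and SPI-B at composite ETS-IRF elements and with other IRF proteins at interferon-stimulated response elements (ISRE). In the spleen it is known for its part in setting the numbers of follicular B cells, which recirculate, and marginal zone B cells, which stay at the rim of the white pulp and depend on Notch2 signals.

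Levels are given as RPKM, which corrects read numbers for the length of the gene and the size of the library. Differences are KO minus WT of the mean log2(RPKM + 1), so that differences of genes near or below 1 RPKM are smaller than their ratios. A gene was called at an adjusted p under 0.05 (limma, Benjamini-Hochberg over all 9864 tested genes). The words rose and fell are used of called genes.

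KO library A stood apart from the others. It listed 1405 of the 11548 genes at 0, against 66 to 291 in the other 5 libraries, and its median correlation with the other naive libraries was 0.87, against 0.959 to 0.974. Of the genes it listed at 0, 324 were at 1 RPKM or more in each of the other 5 libraries, while KO library B had 2 such genes and the other 4 libraries none. Zeros in KO library A were most frequent among low genes, at 25.1% of genes at 1 to 2 RPKM by the median of the other 5 libraries, and 0% of genes at 50 RPKM or more. Its estimated depth of 14500000 reads was the lowest of the 6, which ranged up to 19900000. The library labelled WT A also went against its sort, with Thy1 transcript at 44.4% of the KO mean. The effect of leaving out KO library A is therefore given beside results, and the called genes that passed the test without the library labelled WT A or without both are named with the calls.

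Irf8 transcript was lower in the KO libraries but was not removed. KO libraries A, B and C held 59.5, 77.7 and 72.4 RPKM of Irf8 (Entrez 15900, chromosome 8, 120736358 to 120756694 on GRCm38), and WT libraries A, B and C held 95.8, 97.964 and 93.3 RPKM. The groups did not overlap, and KO library A was the lowest. The log2 difference of -0.46 (SE 0.11) was not called (adjusted p = 0.0689), and it was -0.35 without KO library A (adjusted p = 0.0784). The reads do not show which transcripts carry a guide-made change, and protein was not measured.

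Thy1, the gene of the surface marker of the sort, rose with a difference of 2.71 (SE 0.53, adjusted p = 0.0336). It was at 8.88, 12.016 and 12.4 RPKM in KO libraries A, B and C and at 4.93, 0 and 0.031 RPKM in WT libraries A, B and C, so the library labelled WT A lay between the groups. Without that library the difference was 3.56 (adjusted p = 0.000197). RPKM per gene does not separate the Thy1.1 from the Thy1.2 allele. Irf8 in the library labelled WT A, at 95.8 RPKM, lay within the range of the other 2 WT libraries.

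Across the genome, limma called 114 of 9864 tested genes (1.16%). Of these, 60 rose (0.608%) and 54 fell (0.547%). Counts of called list members below are to be read against these shares. The differences ran from 0.54 to 3.53 among genes that rose and from -3.54 to -0.45 among genes that fell, and 89 of the 114 had a size of at least 1. In each of the 114 genes the KO and WT libraries did not overlap, which held for 17.8% of all tested genes (7.78% with KO above WT and 9.99% with KO below). The median difference of all tested genes was -0.04, and 45.0% of the genes lay above 0.

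**Figure D1:**
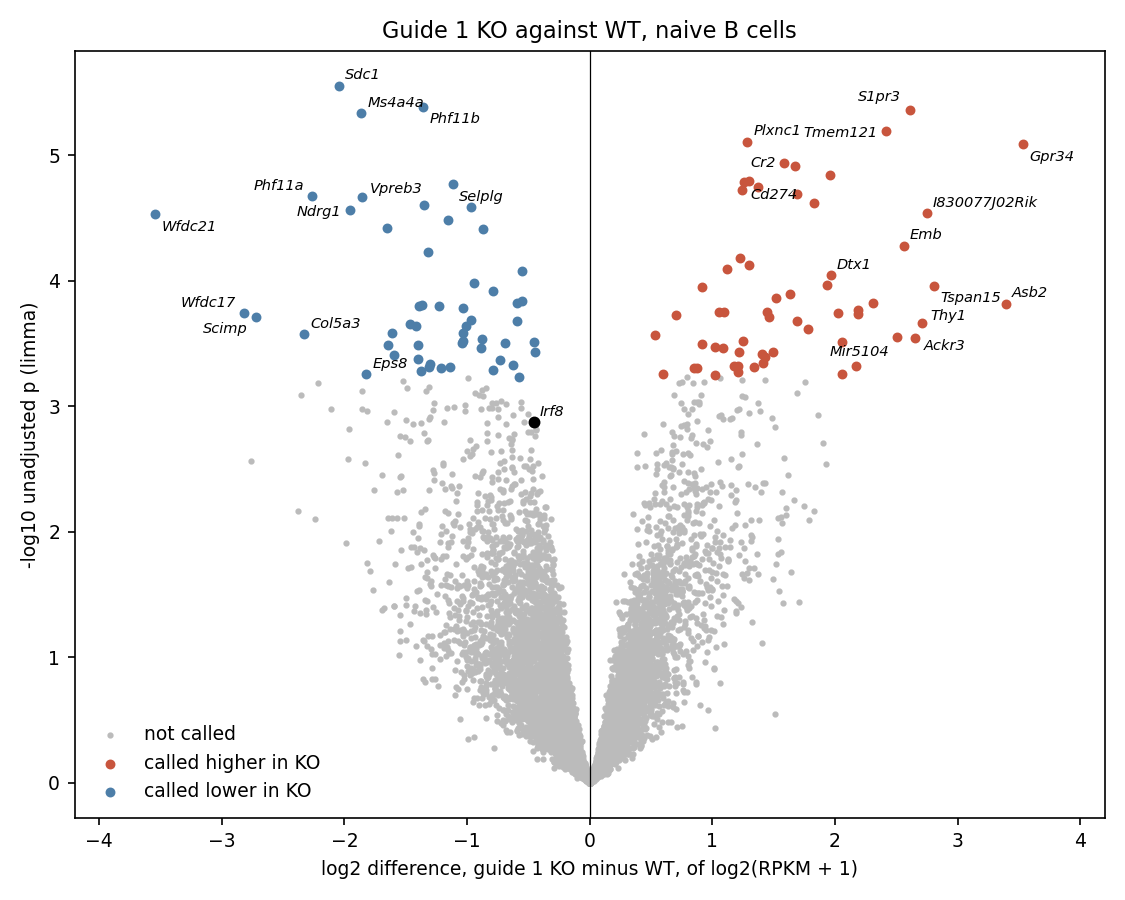
Each point is 1 of 9864 genes, with the log2 difference (guide 1 KO minus WT, of log2(RPKM + 1)) on the horizontal axis and -log10 of limma's unadjusted p on the vertical axis, red for the 60 genes that rose and blue for the 54 that fell. Irf8, in black, lies below the called genes at a difference of -0.46.

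The number of calls moved with single libraries. All 114 genes were still called without KO library A, in the same direction and among 262 calls (2.69%), 133 higher (1.37%) and 129 lower (1.32%). Without KO library B limma called 381 genes, and without KO library C 92, of which 48 were among the 114. Without the library labelled WT A 28 genes were called (0.286%), all among the 114, and without WT library B 31. Without WT library C limma called 0 genes, with 968 at an unadjusted p under 0.05, and with only the 6 libraries of the arm in the fit it called 0, with 882 at an unadjusted p under 0.05. Without both libraries A there were 204 calls (2.12%), 110 higher (1.14%) and 94 lower (0.975%), and 92 of them were among the 114. Of the called genes described below, those also called without the library labelled WT A were Thy1, S1pr3, Cr2, Gpr34, Dtx1, Vpreb3, Selplg, Phf11a, Phf11b, Plxnc1, Nsmce1, Cd274, Traf1, Sdc1, Tspan15, I830077J02Rik, Tmem121, Ms4a4a, Ndrg1 and Col5a3. The others described missed the threshold in that fit, with an adjusted p from 0.0518 for Ddx60 to 0.138 for Cd83. Without both libraries A, Bcl2a1d, Pdia4, Cd83, Cd200, Eps8, Ifit1, Mcl1 and Tmem131 missed it and the other called genes described passed. In none of the 19 alternative fits did a gene of the 114 change sign.

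Libraries within a group also differed in how far they stood from the other group. Among the 60 genes that rose, KO library A held the highest KO value in 31 and KO library B the lowest in 44. Among the 54 genes that fell, KO library A held the lowest value in 31 and listed 10 at 0, while 2 genes were at 0 in KO library B or C. The library labelled WT A was the highest WT library in 38 of the 60 genes that rose and the lowest in 28 of the 54 that fell. A scale was set with 0 at the mean of the other WT libraries and 1 at the mean of KO libraries B and C. On it the library labelled WT A had a median position of 0.26 over 99 tested genes. These genes, called or not, were those with KO libraries B and C at least 1 log2 unit from the other 2 WT libraries. The choice of genes and the scale thus used the same libraries. Placed in the same way, WT library B had a median of 0.14 over 75 genes and WT library C of -0.18 over 63.

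Genes of marginal zone B cells were the list with the most called members. Of 19 tested members 7 rose and none fell, against 0.608% of all tested genes that rose, and 18 had a positive difference. The median difference was 1.16, against -0.04 over all tested genes. Without KO library A 10 members were called higher (1.37% of all genes tested in that fit were), with a median of 1.07. Without the library labelled WT A 4 were called higher (0.184% of all tested), and without both 8 (1.14% of all tested). In bulk RNA a change in the share of a B cell subset and a change in RNA per cell cannot be told apart. The list was drawn up with earlier results of these data known, so that its direction here is not independent evidence.

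S1pr3, the sphingosine-1-phosphate receptor characteristic of marginal zone B cells (Entrez 13610, chromosome 13, 51408618 to 51422797 on GRCm38), was at 112, 78.3 and 164 RPKM in KO libraries A, B and C. The WT libraries held 22.4, 16.7 and 14.7 RPKM. The lowest KO library was thus well above the highest WT library, and the difference was 2.61 (SE 0.34, adjusted p = 0.0113), or 2.62 without KO library A (adjusted p = 0.0049). Cr2, which encodes the complement receptor CD21 (Entrez 12902, chromosome 1, 195136811 to 195176880 on GRCm38), was at 196, 187 and 285 RPKM in KO and 109.6, 57.4 and 60.1 RPKM in WT. The library labelled WT A was the WT library nearest to the KO libraries, and the difference of 1.58 (SE 0.23, adjusted p = 0.0118) was 1.88 without it (adjusted p = 0.00167) and 1.66 without KO library A (adjusted p = 0.0049).

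Gpr34, a receptor for lysophosphatidylserine (Entrez 23890, chromosome X, 13622650 to 13640859 on GRCm38), had the highest difference of all called genes. It was at 39.6, 28.4 and 39.8 RPKM in KO and 5.07, 3.16 and 0.246 RPKM in WT, with a difference of 3.53 (SE 0.49, adjusted p = 0.0114) that was 3.46 without KO library A. All KO libraries were far above all WT libraries. Asb2, a substrate-recognition subunit of a ubiquitin ligase (Entrez 65256, chromosome 12, 103321142 to 103356001 on GRCm38), held 36.3, 7.66 and 39.7 RPKM in KO and 2.61, 1.32 and 0.352 RPKM in WT. KO library B, at 7.66, was low beside the other 2 KO libraries. Its difference was 3.39 (SE 0.63, adjusted p = 0.0323) and 3.06 without KO library A (adjusted p = 0.0269), and it was not called without the library labelled WT A (adjusted p = 0.0585). Ackr3, the atypical receptor that scavenges CXCL12 (Entrez 12778, chromosome 1, 90203980 to 90215724 on GRCm38), was at 35.5, 7.03 and 13.6 RPKM in KO and 2.301, 1.304 and 1.26 RPKM in WT. KO library A held the highest value, and the difference fell from 2.65 to 2.07 when it was left out (adjusted p = 0.0382 and 0.0275). Ackr3 was not called without the library labelled WT A either (adjusted p = 0.0856).

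Pdia4, a protein disulphide isomerase of the endoplasmic reticulum, was the most abundant marginal zone member that rose, at 603, 365 and 596 RPKM in KO and 252, 271 and 228 RPKM in WT (difference 1.02, adjusted p = 0.0391; 0.105 without the library labelled WT A). The members called higher only without KO library A were Notch2, Myof and Tm6sf1. Notch2, the receptor on which marginal zone B cells depend, was at 8.71, 43.8 and 36.2 RPKM in KO libraries A, B and C and at 16.4, 14.7 and 9.81 RPKM in WT. KO library A was thus below every WT library while KO libraries B and C were above them all, and the difference was 0.82 with that library (adjusted p = 0.418) and 1.51 without it (adjusted p = 0.0172). Members that did not pass the test included Cd9, at 106, 16.1 and 60.6 RPKM in KO and 18.7, 10.7 and 19.6 in WT (difference 1.52, adjusted p = 0.215), and Cd1d1, the antigen-presenting molecule CD1d, at 113, 53.9 and 156 and 54.2, 36.3 and 41.3 RPKM (difference 1.16, adjusted p = 0.171). In both of these KO library B lay within the WT range. Rapgef4 was the member with a negative difference, at -0.20 (adjusted p = 0.842).

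**Figure D2:**
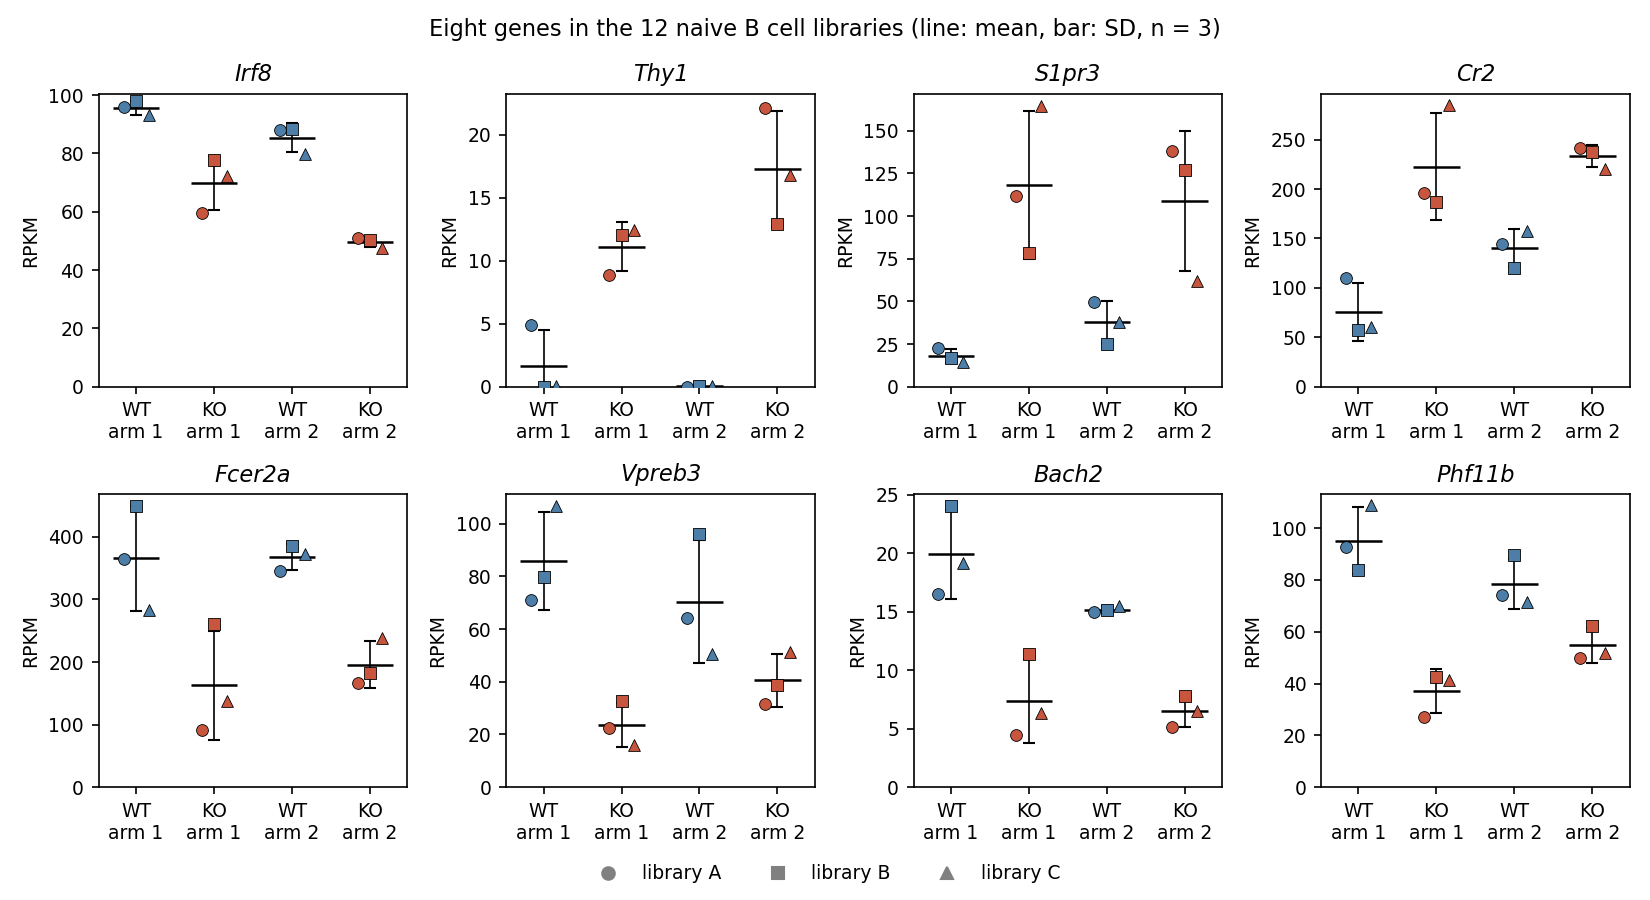
RPKM of 8 genes in the 12 naive libraries, with the guide 1 arm as arm 1 and the guide 2 arm as arm 2, WT blue, KO red, marker shapes for libraries A, B and C, lines for means and bars for SD (n = 3). S1pr3 and Cr2 in arm 1 are higher in every KO library than in every WT library, and Thy1 in the library labelled WT A of arm 1, at 4.93 RPKM, lies above the other 5 WT libraries.

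Notch pathway genes gave 1 call. The median difference of 31 tested members was 0.09, or 0.12 without KO library A. Of these members 1 rose and none fell, against 0.608% and 0.547% of all tested genes. That gene was Dtx1, an E3 ligase and Notch target also in the marginal zone list (Entrez 14357, chromosome 5, 120680203 to 120711867 on GRCm38), at 136, 67.7 and 113 RPKM in KO and 39.9, 19.1 and 21.1 RPKM in WT. All KO libraries lay above all WT libraries, and the difference was 1.96 (SE 0.35, adjusted p = 0.0261) or 1.75 without KO library A (adjusted p = 0.0221). Hes5, a Notch target that encodes a transcriptional repressor, had its KO libraries above its WT libraries too, at 21.7, 14.2 and 17.7 and 9.45, 6.69 and 7.03 RPKM, but was not called (difference 1.11, adjusted p = 0.191). With KO library A left out, Notch2 and Dtx1 were called higher, 2 of 31, against 1.37% of all genes tested in that fit.

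Follicular B cell genes were lower by their median and held no called member. Of 15 tested members 0 rose and 0 fell, which is near the shares of 0.608% and 0.547% of all tested genes. The median difference was -0.43, or -0.29 without KO library A. Fcer2a, which encodes the low-affinity IgE receptor CD23 and marks follicular B cells, was at 90.9, 260.1 and 137 RPKM in KO and 365, 449.9 and 283 RPKM in WT. Its groups did not overlap, but the test did not call it (difference -1.27, adjusted p = 0.0617; -0.92, adjusted p = 0.0533, without KO library A). Cxcr4, the receptor for CXCL12, was at 0.051, 3.69 and 2.49 RPKM in KO and 7.19, 9.09 and 8.04 RPKM in WT. It missed the threshold with all libraries (difference -1.81, adjusted p = 0.0631) and was called lower without KO library A (-1.17, adjusted p = 0.0205). Il4ra, the interleukin-4 receptor alpha chain, was at 25.5, 26.8 and 27.7 RPKM in KO and 57.6, 40.9 and 53.1 RPKM in WT (difference -0.88, adjusted p = 0.0627).

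Genes of transitional and immature B cells, the stage that reaches the spleen from bone marrow, had a median difference of -0.80 over 7 tested members. Of these 1 fell, against 0.547% of all tested genes. Vpreb3, a protein associated with immunoglobulin chains in early B cells (Entrez 22364, chromosome 10, 75943024 to 75949657 on GRCm38), fell. It was at 22.3, 32.6 and 15.8 RPKM in KO and 71.1, 79.95 and 107 RPKM in WT, and the highest KO library lay below the lowest WT library. The difference was -1.86 (SE 0.28, adjusted p = 0.0118) and -1.85 without KO library A (adjusted p = 0.00832). Without that library the transcription factor genes Myb and Sox4 were also called lower (1.32% of all genes tested in that fit were), and the median was -1.37. Sox4 was at 13.8, 1.03 and 0.524 RPKM in KO, so KO library A was above every WT library (8.88, 11.9 and 11.3 RPKM) while the other 2 were near or below 1. Myb was at 2.88, 0 and 1.995 RPKM in KO and 6.67, 10.3 and 12.4 RPKM in WT, with no overlap (difference -2.21, adjusted p = 0.0511; -2.60, adjusted p = 0.0144, without KO library A). Cd93, the defining surface marker of transitional cells, was at most 3.698 RPKM in any of the 6 libraries and was not called (difference -0.77, adjusted p = 0.45).

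**Figure D3:**
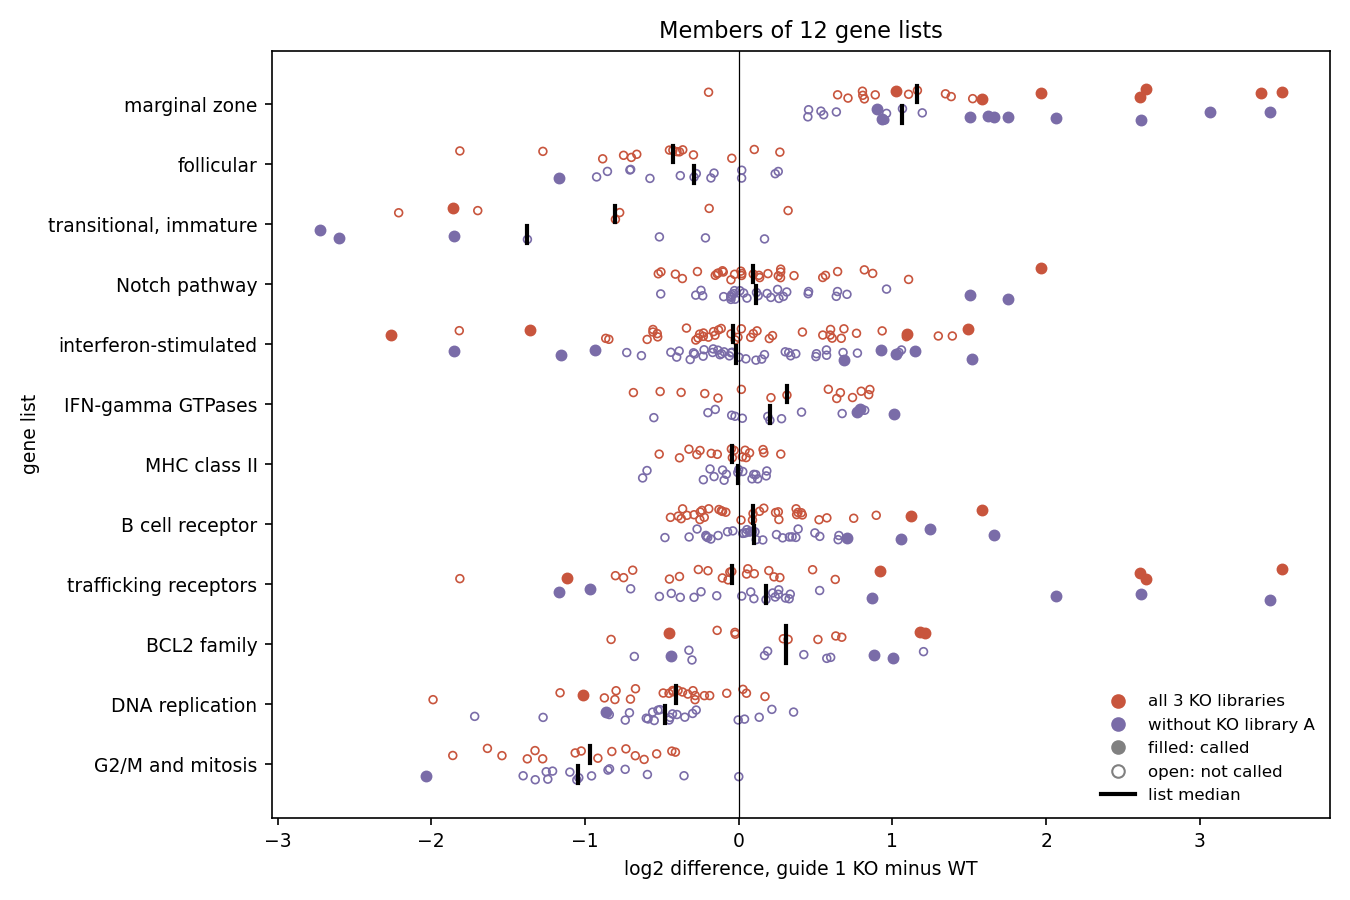
Each circle is a tested member of 1 of 12 gene lists, placed by its log2 difference (guide 1 KO minus WT) with all 3 KO libraries (red) or without KO library A (purple), filled where called, with black bars for the list medians. Marginal zone genes lie to the right, with a median of 1.16 and of 1.07 without KO library A, and all G2/M genes lie to the left of 0 with all 3 KO libraries.

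Receptors that guide B cells within the spleen held calls in both directions. Of 25 trafficking receptors and adhesion molecules 4 rose, S1pr3, Gpr34, Ackr3 and Lpar6, and 1 fell, Selplg, against 0.608% and 0.547% of all tested genes. The other 20 were not called, and the list median was -0.04, or 0.18 without KO library A. The first 3 are also marginal zone members. Lpar6, a receptor for lysophosphatidic acid, was at 11.7, 10.1 and 10.6 RPKM in KO and 5.69, 6.58 and 3.77 RPKM in WT (difference 0.92, adjusted p = 0.0386; 0.86 without KO library A), and was not called without the library labelled WT A (adjusted p = 0.0894). Selplg, the selectin ligand PSGL-1, was at 20.8, 33.6 and 24.8 RPKM in KO and 51.8, 64.3 and 56.9 RPKM in WT, with no overlap (difference -1.12, SE 0.17, adjusted p = 0.0118; -0.97 without KO library A). S1pr4, a further sphingosine-1-phosphate receptor, was at 22.6, 30.8 and 20.3 RPKM in KO and 38.7, 44.4 and 41.1 in WT and was not called (difference -0.75, adjusted p = 0.0769). Of 18 regulators of G-protein signalling, which shorten receptor signals, Rgs10 rose and Rgs2 fell, against 0.608% and 0.547% of all tested genes. Rgs10 was at 17.1, 4.2 and 8.07 RPKM in KO and 2.36, 0.325 and 1.67 RPKM in WT (difference 2.06, adjusted p = 0.0485), and Rgs2 at 11.8, 22.6 and 27.4 and 39.3, 44.7 and 56.982 RPKM (difference -1.21, adjusted p = 0.0462). Both kept their call without KO library A, at 1.59 and -0.87, and both lost it without the library labelled WT A (adjusted p = 0.0805 and 0.0894).

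Interferon-stimulated genes held calls in both directions. Of 44 tested members 2 rose, Ifit1 and Oas1a, and 2 fell, Phf11a and Phf11b, against 0.608% and 0.547% of all tested genes. The other 40 were not called, and the median difference was -0.04, the same as over all tested genes. Ifit1, an RNA-binding antiviral protein (Entrez 15957, chromosome 19, 34640889 to 34650009 on GRCm38), was at 29.1, 12.2 and 15.4 RPKM in KO and 4.41, 5.24 and 7.69 RPKM in WT. KO library A held the highest value, and the difference was 1.49 (SE 0.31, adjusted p = 0.0409) and 1.15 without it (adjusted p = 0.0298). Oas1a, which makes the oligoadenylates that activate RNase L (Entrez 246730, chromosome 5, 120896256 to 120907544 on GRCm38), was at 14.1, 11.4 and 12.7 RPKM in KO and 3.62, 7.32 and 5.89 RPKM in WT. Its difference of 1.09 (SE 0.21, adjusted p = 0.0323) was 1.02 without KO library A. Isg15, a ubiquitin-like protein, was higher in each KO library, at 32.2, 13.7 and 26.8 RPKM against 8.004, 7.32 and 11.1 in WT, and was not called (difference 1.30, adjusted p = 0.0638).

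The PHD finger genes Phf11a and Phf11b went the other way. Phf11b (Entrez 236451, chromosome 14, 59320964 to 59341388 on GRCm38) was at 27.2, 42.7 and 41.4 RPKM in KO and 92.8, 83.8 and 109 RPKM in WT, so that every KO library held less than any WT library (difference -1.36, SE 0.18, adjusted p = 0.0113; -1.15 without KO library A). Phf11a (Entrez 219131, chromosome 14, 59276913 to 59297564 on GRCm38) was lower in level, at 0, 0.829 and 2.005 RPKM in KO and 5.55, 6.85 and 10.8 RPKM in WT, and its difference was -2.26 (SE 0.34, adjusted p = 0.0118), or -1.85 without KO library A. Both genes are near-identical neighbours and so may share reads, and the split of reads between them is uncertain. The same holds for Ifit1 and Oas1a, which lie in clusters of related genes. When KO library A was left out, 5 interferon-stimulated genes were called higher and 3 lower. Of all genes tested in that fit 1.37% were called higher and 1.32% lower. Without the library labelled WT A, Phf11a and Phf11b kept their calls (adjusted p = 0.0256 and 0.0204) and Ifit1 and Oas1a did not (0.13 and 0.0856).

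Promoters of called genes were searched for the elements at which IRF proteins are known to bind. The windows were RefSeq promoters on GRCm38.p6, from 250 bases before to 50 after each annotated start, searched on both strands for 3 motifs. The ISRE core is GAAA, any 2 bases and GAAA, and the ETS-IRF composite is GGAA, any 2 bases and GAAA. The third is TGGGAA, the core of the Notch effector RBPJ. Matches to different motifs can overlap. Of the 60 genes that rose 49 had a promoter in the table, and 6 of these (12.2%) held the ISRE core. Of the 54 that fell 36 had one, and 3 (8.33%) held it. The 3 include Phf11a and Phf11b, whose promoters are largely copies and so are not independent. Among all 8004 tested genes with a promoter the share was 3.91%. The composite stood in 3 of 49 (6.12%), 5 of 36 (13.9%) and 2.87% in the same order. TGGGAA stood in 24.5% of the genes that rose, 19.4% of those that fell and 25.4% of all tested genes with a promoter. A match says that the letters are present, not that a factor binds there.

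The 120 bases before an annotated start, which can be an alternative start, are printed for 12 called genes. These are all called genes with a match to the ISRE core or the composite in that stretch. The place of each element can so be seen before genes that rose and genes that fell. Each is written 5′ to 3′ on the gene's strand, with the matched letters in capitals. On the opposite strand GAAA reads TTTC and GGAA reads TTCC.
Ifit1: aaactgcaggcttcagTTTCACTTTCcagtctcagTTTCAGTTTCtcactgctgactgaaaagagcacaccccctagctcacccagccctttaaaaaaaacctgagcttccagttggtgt
Oas1a: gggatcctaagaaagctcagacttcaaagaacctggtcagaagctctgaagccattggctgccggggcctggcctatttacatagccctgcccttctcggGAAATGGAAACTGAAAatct
Ddx60: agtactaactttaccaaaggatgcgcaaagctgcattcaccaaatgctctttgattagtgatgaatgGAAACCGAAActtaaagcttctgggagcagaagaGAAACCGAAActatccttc
Plxnc1: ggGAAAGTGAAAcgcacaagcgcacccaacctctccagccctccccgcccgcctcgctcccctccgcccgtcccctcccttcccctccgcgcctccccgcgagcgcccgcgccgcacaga
I830077J02Rik: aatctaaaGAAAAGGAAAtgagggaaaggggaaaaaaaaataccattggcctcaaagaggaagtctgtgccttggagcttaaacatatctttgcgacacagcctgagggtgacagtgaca
Psd4: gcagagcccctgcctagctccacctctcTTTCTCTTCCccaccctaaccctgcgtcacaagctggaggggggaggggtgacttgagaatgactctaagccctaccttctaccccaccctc
Phf11a: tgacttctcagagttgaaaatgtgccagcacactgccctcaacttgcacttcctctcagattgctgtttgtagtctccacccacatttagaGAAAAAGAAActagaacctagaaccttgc
Phf11b: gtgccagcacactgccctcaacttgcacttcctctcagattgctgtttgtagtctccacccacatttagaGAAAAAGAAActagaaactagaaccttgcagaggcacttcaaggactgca
Rnase6: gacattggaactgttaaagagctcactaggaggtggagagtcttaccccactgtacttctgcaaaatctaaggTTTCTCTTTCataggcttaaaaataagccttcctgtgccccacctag
Bach2: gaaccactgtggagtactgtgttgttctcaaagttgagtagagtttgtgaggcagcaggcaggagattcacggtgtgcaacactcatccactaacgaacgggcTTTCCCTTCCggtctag
Nsmce1: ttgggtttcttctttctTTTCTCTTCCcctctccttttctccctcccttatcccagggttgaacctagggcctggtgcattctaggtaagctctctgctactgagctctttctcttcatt
Cnp: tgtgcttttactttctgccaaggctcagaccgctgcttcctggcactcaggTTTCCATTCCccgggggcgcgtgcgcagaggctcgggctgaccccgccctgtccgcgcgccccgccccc

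Ifit1 (chr19:34640769-34640888, plus strand), Oas1a (chr5:120907526-120907645, minus strand) and Ddx60 (chr8:61927967-61928086, plus strand) rose, and each holds 2 matches to the ISRE core. In Ifit1 they begin at positions -104 and -85 from the start, and in Oas1a at -20 and -14, where they overlap. Those of Ddx60, an interferon-inducible helicase, begin at -53 and -19. Ddx60 is outside the interferon-stimulated list as tested and was chosen after its values were seen. It was at 4.86, 3.797 and 5.99 RPKM in KO and 0.955, 1.35 and 1.46 RPKM in WT (difference 1.37, adjusted p = 0.0118).

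Plxnc1 (chr10:94944846-94944965, minus strand) and I830077J02Rik (chr3:105932665-105932784, minus strand) rose with 1 match to the ISRE core each, at -118 and -112, and Psd4 (chr2:24385212-24385331, plus strand) rose with 1 match to the composite, at -92. Plxnc1, a semaphorin receptor, was at 30.1, 28.4 and 35.4 RPKM in KO and 14.5, 9.18 and 13.6 RPKM in WT (difference 1.28, adjusted p = 0.0114). Psd4, an exchange factor for the GTPase ARF6, was at 35.6, 28.6 and 28.011 and 19.9, 19.1 and 16.4 RPKM (difference 0.70, adjusted p = 0.0323). Both were named for their match, and in both every KO library lay above every WT library.

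Phf11a (chr14:59297523-59297642, minus strand), Phf11b (chr14:59341331-59341450, minus strand) and Rnase6 (chr14:51128944-51129063, plus strand) fell, with 1 match to the ISRE core each in the stretch shown, at -29, -50 and -47. The Phf11a and Phf11b stretches are largely the same sequence, shifted against each other, and count as 1 promoter seen in copies. Rnase6, an antimicrobial ribonuclease chosen after its values were seen, was at 33.8, 34.5 and 25.3 RPKM in KO and 60.1, 57.1 and 67.2 RPKM in WT (difference -0.96, adjusted p = 0.0121). Bach2 (chr4:32417315-32417434, plus strand) and Nsmce1 (chr7:125487960-125488079, minus strand) fell, and each holds 1 match to the composite, at -17 and -103. The Bach2 start shown is an alternative one inside the gene, which begins at 32238413, so the match is not before its first start. Nsmce1, a subunit of the SMC5/6 complex of DNA repair, was also chosen after its values were seen, and was at 30.2, 27.5 and 24.1 RPKM in KO and 56.004, 56.1 and 74.7 RPKM in WT (difference -1.16, adjusted p = 0.013). Cnp (chr11:100574819-100574938, plus strand), the cyclic nucleotide phosphodiesterase of myelin, also named for its match, fell too and holds 1 match to the composite at -69. It was at 90.038, 105 and 95.5 RPKM in KO and 134, 143 and 149 RPKM in WT (difference -0.55, adjusted p = 0.0323).

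The median difference of 29 B cell transcription factors was -0.13, or 0.01 without KO library A. Of these 1 fell, against 0.547% of all tested genes. The called member was Bach2, a repressor that holds back plasma cell differentiation (Entrez 12014, chromosome 4, 32238413 to 32586109 on GRCm38). It was at 4.41, 11.3 and 6.34 RPKM in KO and 16.5, 24.033 and 19.1 RPKM in WT. The highest KO library, B, stayed below the lowest WT library, the one labelled WT A. The difference was -1.39 (SE 0.26, adjusted p = 0.0323), -1.12 without KO library A (adjusted p = 0.022) and -1.51 without the library labelled WT A (adjusted p = 0.0732). No member of the other IRF genes (8 tested with Irf8, median -0.24) or of the partners of IRF8 (17 tested, median -0.08) was called, with or without KO library A. Over all tested genes 1.16% were called, or 2.69% without KO library A. Irf4, the relative needed for plasma cells, was at 15, 28.3 and 31.9 RPKM in KO and 23.954, 15.1 and 15.6 in WT, with overlapping groups (difference 0.40, adjusted p = 0.481). Without both libraries A it was called higher (0.92, adjusted p = 0.0324). Spib, an ETS partner, was at 127, 147 and 183 and 183, 205 and 211 RPKM (difference -0.40, adjusted p = 0.191).

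Interferon-gamma-inducible GTPases, which attack the vacuoles of intracellular microbes, had 0 called members of 15, against 1.16% of all tested genes. Their median was 0.31. In the fit without KO library A the median was 0.2, and Gbp2, Gbp7 and Tgtp2 were called higher. Of all genes tested in that fit 1.37% were called higher. Gbp7 was at 16.8, 21.6 and 26.1 RPKM in KO and 8.87, 13.039 and 12.4 RPKM in WT, with no overlap (difference 0.85, adjusted p = 0.109; 1.01, adjusted p = 0.0347, without KO library A). Tgtp2 was at 42.3, 34.8 and 40.7 and 17.1, 28.7 and 19.7 RPKM (difference 0.85, adjusted p = 0.051), and may share reads with its near-identical copy Tgtp1.

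Calls among antigen receptor and activation genes went both ways. Of 34 genes of B cell receptor signalling 2 rose, Cr2 and Ptpn22, against 0.608% of all tested genes. The list median was 0.09, or 0.1 without KO library A. Ptpn22, a phosphatase that restrains antigen receptor signals (Entrez 19260, chromosome 3, 103856575 to 103912252 on GRCm38), was at 52.027, 33.9 and 61.4 RPKM in KO and 21.4, 19.046 and 24.047 RPKM in WT, with no overlap (difference 1.12, SE 0.20, adjusted p = 0.0247; 1.06 without KO library A). Of 28 costimulation and activation genes Cd274 rose, and Cd83 and Cd200 fell, against 0.608% and 0.547% of all tested genes. Cd274, the inhibitory ligand PD-L1 (Entrez 60533, chromosome 19, 29362107 to 29388095 on GRCm38), was at 76.3, 52.5 and 61.7 RPKM in KO and 34.2, 21.8 and 22.6 RPKM in WT, and the library labelled WT A was again the nearest to the KO libraries. Its difference was 1.26 (SE 0.19, adjusted p = 0.0118), 1.12 without KO library A and 1.46 without the library labelled WT A. Cd83, a marker of activation, was at 103, 97.5 and 93.969 RPKM in KO and 140.5, 133 and 128 RPKM in WT (difference -0.45, adjusted p = 0.0409). Cd200, which signals to an inhibitory receptor on myeloid cells, was at 6.22, 8.04 and 4.804 and 15.1, 12.5 and 14.1 RPKM (difference -1.04, adjusted p = 0.0373). Ptpn22, Cd83 and Cd200 were not called without the library labelled WT A (adjusted p = 0.0773, 0.138 and 0.116).

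Survival genes held calls in both directions. Of 12 BCL2 family genes 2 rose, Bcl2a1b and Bcl2a1d, and 1 fell, Mcl1, against 0.608% and 0.547% of all tested genes. The other 9 were not called, and the list median was 0.31. Bcl2a1b, a copy of the anti-apoptotic gene A1, was at 109, 39.996 and 72.7 RPKM in KO and 31.9, 29.5 and 25.5 RPKM in WT (difference 1.21, adjusted p = 0.0479). Bcl2a1d was at 68.6, 33.957 and 65.1 and 25.3, 28.6 and 16.7 RPKM (difference 1.18, adjusted p = 0.0462). These genes are near-identical copies, so the split of reads between them and Bcl2a1a is uncertain. Mcl1, a further anti-apoptotic member, was at 277, 283 and 280.4 RPKM in KO and 376, 378 and 396 RPKM in WT. Its spread within each group was small, and its difference of -0.45 was among the smallest that were called (SE 0.09, adjusted p = 0.0383). Without KO library A all 3 kept their calls, and without the library labelled WT A none did. Traf1, an adaptor of tumour necrosis factor receptors, was the called member of 11 genes of that family and rose, against 0.608% of all tested genes. It was at 20.8, 17.8 and 29.4 RPKM in KO and 9.79, 6.74 and 4.03 RPKM in WT (difference 1.63, adjusted p = 0.0315). Tnfrsf1b, the receptor TNFR2, was listed at 0 in KO library A and at 15.3 and 13.9 RPKM in KO libraries B and C, against 9.67, 7.999 and 5.62 in WT. Its difference was -0.46 with KO library A (adjusted p = 0.787) and 0.85 without it (adjusted p = 0.0446), with the opposite sign.

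Genes of plasma cells and of the secretory pathway also held calls. Of 19 plasma cell genes Sdc1 fell, against 0.547% of all tested genes. The median difference was -0.10, or 0.04 without KO library A. Sdc1, which encodes CD138 (Entrez 20969, chromosome 12, 8771396 to 8793716 on GRCm38), was low in all libraries, at 0, 0.232 and 0.117 RPKM in KO and 3.39, 3.87 and 3.54 RPKM in WT, with no overlap (difference -2.05, SE 0.25, adjusted p = 0.0113; -1.97 without KO library A). Mzb1, a chaperone of immunoglobulin assembly that marginal zone B cells also make, was at 191, 117 and 160.3 RPKM in KO and 96.3, 107 and 77.969 in WT and was not called (difference 0.71, adjusted p = 0.145). Of 27 genes of the unfolded protein response and secretion Pdia4 rose and Herpud1 fell, against 0.608% and 0.547% of all tested genes. The list median was 0.07. Herpud1, a component of the degradation machinery of the endoplasmic reticulum, was at 41.6, 44.9 and 40.3 RPKM in KO and 61.4, 64.3 and 61.7 RPKM in WT (difference -0.55, SE 0.10, adjusted p = 0.025; 0.0773 without the library labelled WT A).

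The remaining genes with the highest differences included membrane and cytoskeletal proteins. Tspan15, a tetraspanin that partners the protease ADAM10 (Entrez 70423, chromosome 10, 62185396 to 62231276 on GRCm38), was at 23.025, 7.39 and 10.4 RPKM in KO and 2.35, 0.166 and 0.721 RPKM in WT (difference 2.81, SE 0.51, adjusted p = 0.029; 2.38 without KO library A). Emb, the immunoglobulin-superfamily protein embigin, was at 12.9, 8.53 and 8.27 and 0.694, 1.41 and 0.462 RPKM (difference 2.56, adjusted p = 0.0184). Both had KO libraries that all lay above the WT libraries. I830077J02Rik held 34.3, 20.2 and 47.9 RPKM in KO and 9.33, 2.97 and 1.93 RPKM in WT, with the library labelled WT A the nearest to KO (difference 2.75, adjusted p = 0.0121; 3.28 without that library). Tmem121 (2.41), Ppl, which encodes the cytolinker periplakin (2.31), and Tmem255a (2.19) completed the log2 differences of the 12 highest, with Mir5104 (2.51). Mir5104 is a microRNA locus measured here in polyA RNA, so its value may come from a transcript that overlaps it. Pla2g7, which degrades platelet-activating factor, was the called member of 15 genes of kynurenine and lipid metabolism and rose, against 0.608% of all tested genes. It was at 16.972, 4.95 and 11.1 RPKM in KO and 2.46, 0.576 and 1.58 RPKM in WT (difference 2.17, adjusted p = 0.0462).

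Among the genes that fell most, several were near the lower limit of detection in KO. Wfdc21, a secreted protein with a whey acidic protein domain, was listed at 0 in all 3 KO libraries and was at 10.1, 5.604 and 20.7 RPKM in WT (adjusted p = 0.0121). Its log2 difference of -3.54 depends on the 1 that is added and is no fold. Wfdc17, of the same protein family, was at 0, 4.79 and 0.754 RPKM in KO and 15.2, 22.2 and 8.56 RPKM in WT (difference -2.82, SE 0.54, adjusted p = 0.0323; -2.26 without KO library A). Scimp, a transmembrane adaptor of antigen-presenting cells, was the called member of 25 genes of lysosomes and Fc receptors and fell, against 0.547% of all tested genes. It was at 0.092, 7.03 and 3.42 RPKM in KO and 18.5, 23.3 and 22.4 RPKM in WT. KO library A was the lowest by far, and the difference was -2.72 with it and -1.91 without it (adjusted p = 0.0323 and 0.00458; 0.0856 without the library labelled WT A). Ms4a4a, a membrane protein of the CD20 family (Entrez 666907, chromosome 19, 11375488 to 11392915 on GRCm38), was at 3.38, 3.36 and 5.35 RPKM in KO and 13.3, 18.7 and 19.8 RPKM in WT, with little spread within each group (difference -1.87, SE 0.24, adjusted p = 0.0113).

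Further genes of the 12 lowest had low levels throughout. Ndrg1, a stress-responsive gene, was at 0.033, 0.987 and 1.13 RPKM in KO and 4.51, 4.38 and 7.64 RPKM in WT (difference -1.96, adjusted p = 0.0121). Col5a3, a collagen chain, was at 0, 0 and 0.058 and 1.65, 3.53 and 10.2 RPKM (difference -2.33, adjusted p = 0.0373). Its WT libraries differed among themselves more than those of Ndrg1. Eps8, an actin regulator (-1.83), and Hcrtr2, an orexin receptor (-1.66), are genes better known from other tissues, and no KO library held more than 1.39 and 0.452 RPKM of them in that order.

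**Figure D4:**
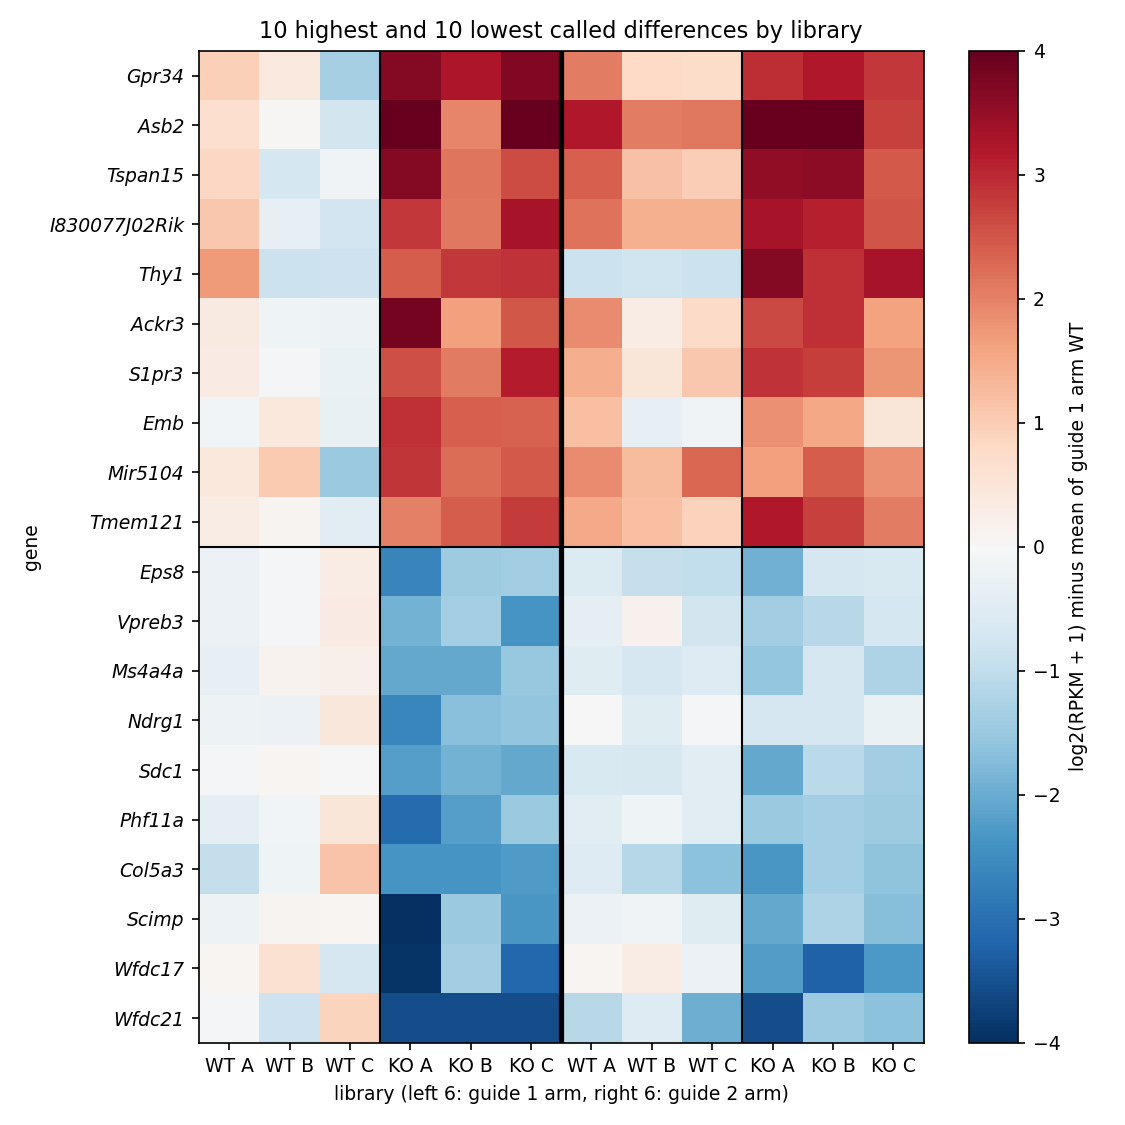
Colour gives log2(RPKM + 1) minus the mean of the guide 1 arm WT libraries for the 10 genes with the highest and the 10 with the lowest called differences, with the guide 1 arm in the left 6 columns and the guide 2 arm in the right 6. In the left 6 columns KO libraries are red for the upper genes and blue for the lower ones, Wfdc21 is listed at 0 in all 3 KO libraries, and the library labelled WT A is nearer to KO for Thy1, at 4.93 RPKM.

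Proliferation genes were lower in KO by their medians. All 16 tested G2/M genes had a negative difference (55.0% of all tested genes did), with a median of -0.97, and none was called. The list held 24 genes, and a gene could pass the filter on its WT libraries alone. Genes of this list can also vary together, so their number is not a number of independent results. The summed level of the list was 23.5 to 32.8 RPKM in the KO libraries and 43.3, 51.6 and 164 RPKM in WT libraries A, B and C, so WT library C stood far above all others. Stmn1, a microtubule regulator of dividing cells, was at 3.78, 2.8 and 1.95 RPKM in KO and 9.299, 10.045 and 21.5 RPKM in WT (difference -1.86, adjusted p = 0.0565), and was called lower without KO library A (-2.03, adjusted p = 0.027). Of 24 DNA replication genes 1 fell, Mcm5, against 0.547% of all tested genes, and the median was -0.41. Mcm5, a subunit of the replicative helicase, was at 7.31, 10.1 and 10.6 RPKM in KO and 18.6, 16.9 and 23.8 RPKM in WT (difference -1.01, SE 0.20, adjusted p = 0.0341; 0.0894 without the library labelled WT A). Rrm2, of ribonucleotide reductase, was at 21.1 RPKM in WT library C and at most 6.5 in the others, and was not called (difference -1.99, adjusted p = 0.188). The part of WT library C in the guide 1 medians was not tested. Without KO library A the medians of the G2/M and DNA replication lists were -1.05 and -0.48. With guide 2 they were -0.27 and -0.14.

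Over all tested genes 1.16% were called, so that 0 calls in a short list is near that share. Several programmes held no called member. These were MHC class II presentation (17 tested, median -0.04), MHC class I presentation (20, 0.05), Toll-like receptor and NF-kB genes (29, 0.04), cytokine receptors (29, -0.10), MYC targets and ribosome biogenesis (23, 0.22), glycolysis (17, 0.04), immediate early genes (19, -0.27), p53 targets (14, 0.03) and genes of age-associated and B-1 cells (12, -0.28). Without KO library A the medians were -0.01, -0.03, -0.01, -0.04, 0.03, -0.07, -0.23, -0.02 and 0.03 in the same order. Summed MYC and ribosome genes were at 897 RPKM in KO library A and at 493 and 548 in KO libraries B and C. The WT libraries held 508 to 527 RPKM of them. In the MHC class II list, H2-Eb1 was at 637, 556 and 531 RPKM in KO and 559, 564 and 514 RPKM in WT, with overlapping groups (difference 0.07, adjusted p = 0.775). Egr1, an early response gene, was at 2.97, 10.9 and 6.53 RPKM in KO and 18.3, 16.975 and 15.6 RPKM in WT and narrowly missed the threshold (difference -1.34, adjusted p = 0.0562; -0.92, adjusted p = 0.0269, without KO library A). Tlr3, the receptor for double-stranded RNA, was at 3.52, 3.22 and 5.32 and 0.658, 0.829 and 0.032 RPKM (difference 1.76, adjusted p = 0.051; 1.82, adjusted p = 0.0321, without KO library A). Without KO library A each of 4 of these lists had 1 called member, Tlr3 higher, and Vim of the B-1 list, Pfkp of glycolysis and Egr1 lower. Over all genes tested in that fit 1.37% were called higher and 1.32% lower.

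The libraries had the markers of B cells. Of 15 B cell markers 14 were not called and 1 fell, against 0.547% of all tested genes. The summed level of the list was 4060 to 4550 RPKM in KO and 4390 to 4700 RPKM in WT. Cd79a, a signalling chain of the B cell receptor, was at 1391, 1292 and 1217 RPKM in KO and 1360.3, 1429 and 1338 RPKM in WT (difference -0.08, adjusted p = 0.712). Fcmr, the Fc receptor for IgM, was the member that fell, at 385, 358 and 301 RPKM in KO and 513, 511 and 541 RPKM in WT (difference -0.59, SE 0.11, adjusted p = 0.0323).

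Markers of other cell types differed between single libraries. Summed macrophage markers (12 of 17 in the table) were at 61.6 RPKM in KO library A, 6.16 and 12.6 in KO libraries B and C, and 10.4 to 25.7 in WT. The highest of them in KO library A were Vcam1 (15.2), C1qa (13.3), C1qb (10.6), Adgre1 (8.71) and Slc40a1 (8.05), while Csf1r, Itgam and Cd68 were at 0 RPKM there. Hba-a1, of haemoglobin, was at 12.96 RPKM in KO library A and at most 0.946 in the other 5. Natural killer markers (8 of 12 in the table) summed to 2.30 to 4.95 RPKM in KO and to 1.04, 5.74 and 19.6 RPKM in WT libraries A, B and C, and Ncr1, which defines those cells, was at 2.58 RPKM in WT library C and at most 0.072 in the others. Prf1, of the same list, rose, at 4.94, 2.27 and 3.16 RPKM in KO and 0.569, 0.828 and 0.388 in WT (difference 1.45, adjusted p = 0.0323), while Ncr1 was at 0 RPKM in all 3 KO libraries. Cd2, of the T cell list and also made by mouse B cells, fell, at 62.4, 59.3 and 45.2 RPKM in KO and 92.9, 97.5 and 97.8 in WT (difference -0.79, adjusted p = 0.0304). Of 15 T cell markers 4 were in the table, of 12 dendritic cell markers 9, of 11 erythroid markers 5 and of 11 stromal markers 4. No neutrophil or platelet marker of the 12 and 8 listed was in it. With all libraries no other tested member of these lists was called. The part of other cells in the differences was not tested.

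The guide 2 arm shares no library with the guide 1 arm and gave the same direction for most of the 114 genes. Its libraries did enter the spread of the fit that called the 114, though not the guide 1 difference. Genes with little spread in the guide 2 arm were thus favoured, so the shares of non-overlap below are not independent of that choice. The shares over all tested genes are not matched for level or size. The 114 include Thy1, the gene of the marker of the sort in both arms. With guide 2, 110 of them (96.5%) had a difference of the same sign, against 58.0% of all tested genes. In 70 (61.4%) the guide 2 KO and WT libraries did not overlap, in the same direction, against 9.77% of all tested genes. These were 41 genes that rose with guide 1 and 29 that fell, while the guide 2 KO libraries lay above WT in 7.36% and below in 6.41% of all tested genes. The sizes were smaller with guide 2 in 110 of the 114, with a median of 0.82 against 1.45 for genes that rose and of -0.48 against -1.22 for genes that fell. The 114 were chosen by their guide 1 difference, so that a smaller size in another arm was built into the comparison. The labels do not say whether the arms shared animals.

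Limma called 3 genes with guide 2 (0.0304%), Thy1, Ifit1 and Irf8, of which Thy1 and Ifit1 were called with both guides. Thy1 is the gene of the marker on which both arms were sorted, so its call in both is not a result about Irf8. Irf8 was at 50.9, 50.3 and 47.6 RPKM in guide 2 KO and 88.043, 88.4 and 79.8 RPKM in its WT, and fell with a difference of -0.77 (adjusted p = 0.0415), against -0.46 with guide 1, which was not called. With guide 2, Ifit1 was at 13.2, 23.5 and 20.8 RPKM in KO and 3.18, 3.41 and 2.25 RPKM in WT, a difference of 2.33 against 1.49 with guide 1. S1pr3 was at 138, 127 and 61.8 RPKM in guide 2 KO and 49.9, 25.1 and 38.027 RPKM in its WT, with no overlap (difference 1.48, against 2.61). The WT libraries of that arm held more S1pr3 than those of the guide 1 arm. Vpreb3 was at 31.4, 38.7 and 51.4 and 64.3, 96.2 and 50.6 RPKM with guide 2, with overlapping groups (difference -0.76, against -1.86). Mir5104 had a difference of 0.15 with guide 2 against 2.51 with guide 1.

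The difference between the guides was itself tested, and limma called 0 genes (smallest adjusted p 0.91, 471 at an unadjusted p under 0.05). Among the 114, the genes with the lowest unadjusted p for that difference were Ppp1r35 (-0.87 with guide 1 and -0.06 with guide 2, unadjusted p = 0.00146 in limma), Tmem131 (0.85 and -0.12) and Ndrg1 (-1.96 and -0.35). None of these passed the adjustment (adjusted p 0.91). Without KO library A the test still called 0 genes, with a smallest adjusted p of 0.128.

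**Figure D5:**
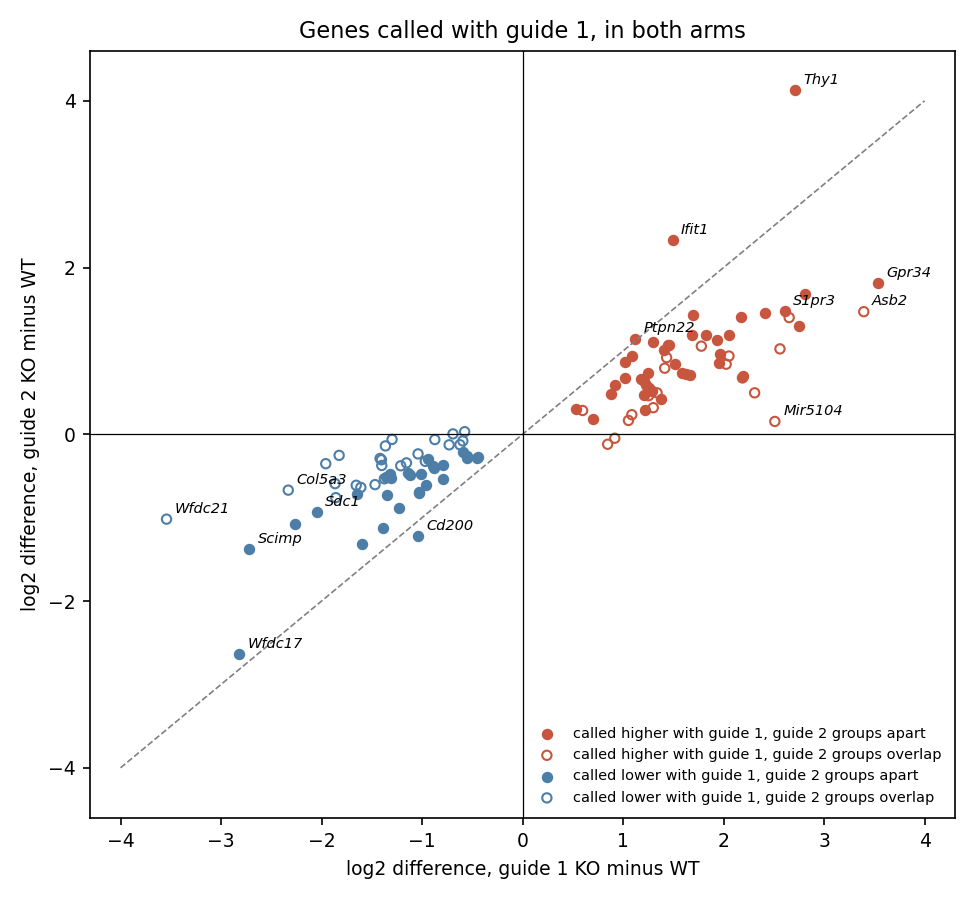
Each point is 1 of the 114 genes called with guide 1, with its log2 difference with guide 1 on the horizontal and with guide 2 on the vertical axis, filled where the guide 2 KO and WT libraries do not overlap, and a dashed line of equal differences. Of the 114 points 110 have the same sign on both axes, and most lie nearer to 0 on the guide 2 axis. Thy1, Ifit1, Cd200 and, by little, Ptpn22 lie beyond the dashed line.

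Leaving out KO library A added 148 calls, 73 higher and 75 lower. In some of the largest KO library A was listed at or near 0 or at a level like WT, while in others, such as Tlr3, Stmn1 and Myb above, it lay on the same side of WT as the other KO libraries. Srms, a tyrosine kinase of the Src group, was at 0, 9.199 and 12.8 RPKM in KO libraries A, B and C and at 0.986, 0.464 and 0.396 RPKM in WT, and its difference went from 1.70 to 2.89 (adjusted p = 0.275 and 0.000737). Abcb1a, a multidrug efflux transporter, was at 0.039, 4.78 and 7.75 and 0.41, 0.331 and 0.253 RPKM (difference 2.42 without KO library A, adjusted p = 0.00105), and Pygl, liver glycogen phosphorylase, at 0, 6.23 and 4.72 and 1.202, 0.715 and 0.326 RPKM (1.91, adjusted p = 0.0175). In these 3 genes KO libraries B and C lay above every WT library, and KO library A below them. Kmo, kynurenine monooxygenase, was listed at 0 in KO library A and was at 12.5 and 12.972 RPKM in KO libraries B and C, against 37.9, 39.5 and 36.5 in WT. It was lower in every KO library, and its difference was -2.77 with KO library A (adjusted p = 0.101) and -1.51 without it (adjusted p = 0.0057). Klf10, a zinc finger factor induced by TGF-beta, was at 9.66, 1.11 and 3.11 RPKM in KO and 6.05, 6.44 and 9.46 RPKM in WT, with KO library A at the level of the highest WT library (difference -1.48, adjusted p = 0.031, without it).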

How the data were processed

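PolyA RNA of sorted spleen B cells was measured in 12 naive libraries, of which 6 form the comparison. The authors deposited RPKM per gene. The submitters' processing notes name the aligner STAR and the build mm10. Versions, counting, annotation and the use of strand are not given in the sources used here, so reads of overlapping or antisense genes cannot be told apart. Depth was estimated from the steps between low values (100% whole within 0.2) and was 14500000 to 19900000 reads per library. Counting error is not given, since no counts were used. Of 11548 genes, 11540 were found in a RefSeq gene table on GRCm38, the assembly called mm10, and 15 symbols that had become dates were restored.

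The scale was log2(RPKM + 1), fitted with limma 3.58.1 (R 4.3.3) over genes at 1 RPKM or more in at least 2 of the 6 libraries. There was 1 fit with 4 group means over the 12 naive libraries, with a trend in the spread and two-sided tests. Adjusted p-values are by Benjamini-Hochberg over all tested genes. The fit without KO library A used the same model over the other 11 libraries. Values after SE are standard errors of the difference.

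The members and gene lists were chosen with earlier results of these data known. Genes were named where they were Irf8 or Thy1, among the 12 highest or lowest called differences whose groups did not overlap, called members of a list or its up to 3 largest differences per direction, among the 6 largest per direction called only without KO library A, called with both guides or lowest in p between the guides, or cell type markers. Other genes named, such as Notch2, Cd9 and Cd1d1, were chosen after their values were seen. Alternatives were other pseudocounts, filters, scalings, library weights, a replicate block and leaving out each library. Some genes that met the rule are not reported here. The fit was also run on simulated data, and the outcome is not reported here.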

Additional observations from a re-analysis of the deposited data

How the results depend on the processing

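The 114 calls held least against the choice of libraries. Leaving out 1 library of the arm gave 0 to 381 calls, the lowest without WT library C and the highest without KO library B, with 262 without KO library A, 28 without the library labelled WT A and 31 without WT library B. Without both libraries A there were 204. With only the 6 libraries of the arm in the fit there were 0, and 58 when KO library A was also left out, an alternative chosen after seeing the data. A pseudocount of 0.1 gave 61, and array weights, which gave KO library A a weight of 0.08, gave 238. A fit with no trend in the spread gave 80, and the other pseudocount, filters and scalings gave 93 to 155. The cause of each move was not tested. Adding the letter as a replicate block gave 49 calls, 44 of them shared with the 114. Deviations of libraries with the same letter correlated at -0.061, 0.068 and -0.087. They are deviations from means of 3 libraries and include the zeros of KO library A. They therefore cannot show whether a letter marks 1 animal. The labels do not say so, and the letters were not taken as pairs.

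Of the 114 genes 13 were called in 17 of the 19 alternatives (Cr2, Crebl2, Gpr34, Ms4a4a, Myo1f, Nsmce1, Pafah1b3, Phf11b, Pik3r4, Plxnc1, S1pr3, Suco and Vpreb3), the highest number for any gene, and the median gene was called in 12. Tnfrsf1b, which was not called at -0.46, was called at 0.85 without KO library A and at 1.01 without both libraries A, and lay at -1.16 without KO library B. The difference between the guides had 0 calls in each fit with both arms, 284 to 1049 genes being at an unadjusted p under 0.05 (limma). With 3 libraries per group, differences of genes below about 1 RPKM are limited by depth.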
